A study of Rattus norvegicus with 24 samples.

Results

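The heat shock and DnaJ chaperone genes were followed in the forebrain of rats given D-serine, an amino acid that acts in brain beside glutamate at NMDA receptors. Members were the probe sets whose only gene symbol on the array's annotation began with Dnaj, Hspa, Hspb, Hspd, Hspe, Hsph or Hsp90 or named a chaperonin subunit from Cct2 to Cct8, with Hspb1 left out. This gave 107 of 31099 probe sets and 70 of 14217 genes. Each gene was read at its probe set of highest mean, called its brightest probe set below, and 59 of the 70 genes lay above the filter on dim probe sets, as did 10205 of all genes. The other 11 were not tested (Dnajb12, Dnajb3, Dnajb7, Dnajc17, Dnajc22, Hspa12b, Hspa1l, Hspb2, Hspb3, Hspb9 and Hspbap1), with mean levels from 4.28 to 5.94 on the log2 scale. No probe set with a single symbol stood for Hspa8, Hsp90aa1 or Hspa1b, so the constitutive cytosolic Hsp70 and the inducible Hsp90 could not be read here. The prefix Hspb also took in Hspbp1 and Hspbap1, which are not small heat shock proteins.

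The rats were male Fisher 344 animals 11 to 12 weeks old that received 1 dose of vehicle or of D-serine at 5, 20, 50, 200 or 500 mg/kg, and a forebrain piece of about 30 mg was taken 96 hours later. Each of the 6 groups held 4 rats with 1 Affymetrix array per rat, 24 arrays in all. All rats were of 1 strain and sex and were killed at 1 time. The route of dosing is not given in the sources used here. The tissue was bulk, so fewer cells of a type and less RNA per cell cannot be told apart.

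Molecular chaperones bind unfolded proteins and help them fold, move between compartments or be degraded. The Hsp70 proteins do this in cycles of ATP use that J proteins, the Dnaj family, start and that nucleotide exchange factors such as Hsph1 end, and Hsp90 and the CCT chaperonin ring take over particular clients such as kinases, actin and tubulin. Stress in the cytosol raises many of these genes through heat shock factor 1, which binds the heat shock element, and stress in the endoplasmic reticulum raises another set through ATF6 and XBP1, which act at the endoplasmic reticulum stress element. In neurons the family also serves the synapse, where Dnajc5 keeps vesicle proteins folded and Dnajc6 helps strip clathrin from vesicles.

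Promoters are shown for members of both stress programmes, whose genes are the usual readouts of such stress, and for Dnajb14, the member with the largest change that passed the test at a brightest probe set. Sequences are RefSeq's for the build GRCr8, in a table of 33469 promoters reaching from 250 bases before to 50 bases after each transcript start, and 59 of the 70 member genes had an entry. A heat shock element of 2 units was searched as GAANNTTC on both strands, and one of 3 units as the same letters followed by NNGAA, so that each longer match holds a shorter one. The endoplasmic reticulum stress element was searched on both strands as CCAAT and CCACG with 9 bases of any kind between them. Capitals mark the element of 3 units in the first pair of sequences and the endoplasmic reticulum stress element in the next 3, and the 250 bases before the start are given.
Hspe1, chr9:64084077-64084326, plus strand: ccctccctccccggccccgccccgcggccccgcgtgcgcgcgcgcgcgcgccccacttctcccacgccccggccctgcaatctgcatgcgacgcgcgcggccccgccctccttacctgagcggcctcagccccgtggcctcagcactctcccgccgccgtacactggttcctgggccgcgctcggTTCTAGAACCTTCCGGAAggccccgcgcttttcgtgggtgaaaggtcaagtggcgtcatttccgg
Hsph1, chr12:10427118-10427367, plus strand: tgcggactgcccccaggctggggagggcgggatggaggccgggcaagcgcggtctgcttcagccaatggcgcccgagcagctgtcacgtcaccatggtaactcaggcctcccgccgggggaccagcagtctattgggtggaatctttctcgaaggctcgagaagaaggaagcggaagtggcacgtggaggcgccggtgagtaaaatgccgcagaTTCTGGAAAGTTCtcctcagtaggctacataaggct
Hspa5, chr3:38452766-38453015, plus strand: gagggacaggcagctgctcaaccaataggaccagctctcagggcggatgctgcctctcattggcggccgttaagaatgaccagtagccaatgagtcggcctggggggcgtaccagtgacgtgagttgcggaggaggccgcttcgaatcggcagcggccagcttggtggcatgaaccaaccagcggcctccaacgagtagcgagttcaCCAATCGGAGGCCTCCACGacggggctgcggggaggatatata
Hsp90b1, chr7:23012294-23012543, minus strand: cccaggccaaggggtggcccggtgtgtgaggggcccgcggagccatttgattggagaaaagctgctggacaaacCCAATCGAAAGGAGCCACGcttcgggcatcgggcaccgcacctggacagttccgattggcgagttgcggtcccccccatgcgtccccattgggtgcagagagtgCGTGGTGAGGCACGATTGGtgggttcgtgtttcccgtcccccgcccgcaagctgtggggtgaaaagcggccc
Dnajc3, chr15:102432417-102432666, plus strand: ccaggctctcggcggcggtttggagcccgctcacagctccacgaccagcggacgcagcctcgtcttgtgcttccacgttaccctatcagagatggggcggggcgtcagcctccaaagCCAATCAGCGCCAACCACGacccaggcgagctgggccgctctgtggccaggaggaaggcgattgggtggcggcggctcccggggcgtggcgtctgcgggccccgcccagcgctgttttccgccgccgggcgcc
Dnajb14, chr2:229032165-229032414, plus strand: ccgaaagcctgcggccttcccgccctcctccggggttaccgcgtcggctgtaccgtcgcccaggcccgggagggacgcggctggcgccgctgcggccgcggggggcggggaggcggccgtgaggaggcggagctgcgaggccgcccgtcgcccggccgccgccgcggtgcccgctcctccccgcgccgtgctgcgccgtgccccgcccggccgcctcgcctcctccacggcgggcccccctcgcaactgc

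The element of 3 units occurred in 5 member promoters, those of Cct4, Dnaja1, Hspd1, Hspe1 and Hsph1, or 8.47% against 0.798% of all promoters in the table. In Hspe1 it lay in 2 overlapping copies between positions -65 and -48 from the start. Hspe1 and Hspd1, the subunits of the mitochondrial chaperonin, face away from one another and their windows share 211 bases, so both promoters held the same copies. The element of 2 units occurred in 11 member promoters, or 18.6% against 8.59% of all, Hspa9 and Dnajb1 among them. The endoplasmic reticulum stress element occurred in Hspa5, Hsp90b1 and Dnajc3, or 5.08% of member promoters against 0.0657% of all, with 2 copies in Hsp90b1. Neither element was found in the Dnajb14 window, which says only that these letters are not in it. The motifs were chosen as those known for these genes, and a match is not evidence of binding.

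Some features of the arrays bear on every comparison. The 3′ to 5′ ratio of the Gapdh control probe sets, a sign of RNA quality, averaged 0.77 ± 0.07 on the vehicle arrays (log2, SD, n = 4). It was 0.18 ± 0.09 at 5 mg/kg, 0.19 ± 0.05 in the 20 mg/kg group and 0.31 ± 0.18 in the 50 mg/kg group. These 3 groups did not overlap vehicle (exact two-sided permutation p = 0.0286 each, the smallest that 4 against 4 arrays can give, adjusted p = 0.0476 over 10 comparisons), whereas 200 and 500 mg/kg averaged 0.56 ± 0.19 (exact p = 0.114) and 0.77 ± 0.12 (exact p = 1). The actin ratio moved the same way, from 2.53 ± 0.19 in vehicle to 1.71 ± 0.15, 1.64 ± 0.16 and 1.87 ± 0.07 at the 3 lower doses. Among the tissue markers, array 4 of 500 mg/kg had a cerebellar marker mean of 10.1 against 5.97 to 6.59 on the other arrays and a forebrain neuron mean of 6.58 against 8.77 to 9.63. The thalamus marker mean was 9.04 on vehicle array 2 and 8.56 on array 3 of 50 mg/kg, against 6.46 to 7.20 on the others. The mean of the myelinating oligodendrocyte markers was 9.81, 10.9, 10.03 and 10.8 on the 4 vehicle arrays, and at most 10.01 on the arrays of 5 and 20 mg/kg. Striatum markers varied within groups. Their mean ran from 8.16 to 9.80 on the vehicle arrays, from 7.18 to 9.26 at 5 mg/kg and from 7.17 to 9.47 at 20 mg/kg. At 50 mg/kg it ran from 6.97 to 9.54. The part of these tissue markers in the results was not tested. Array medians of the deposited intensities ran from 56.0 to 103.8 before the arrays were brought to a common distribution.

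The question of the design was what a single dose of D-serine left in forebrain expression after 96 hours. For the chaperone genes, the same 3 of 59 passed at 5 and at 20 mg/kg, and none at 50, 200 or 500 mg/kg. Dnajb14, a J protein anchored in the endoplasmic reticulum membrane, fell. Hspa9, the Hsp70 of the mitochondrial matrix, and Dnajc5, the cysteine string protein of synaptic vesicles, rose. All 3 calls at both doses were lost when the Gapdh ratio entered the limma fit as a covariate, which called 0 of all 10205 genes and widened the errors. RNA quality and dose cannot be told apart at 5, 20 and 50 mg/kg. The heat-inducible genes, the chaperones of the endoplasmic reticulum lumen, the CCT subunits and the small heat shock proteins had no member past the test at their brightest probe sets.

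The 3 calls were made with limma's moderated test at an adjusted p under 0.05, with Benjamini-Hochberg adjustment over all 18625 probe sets tested. They were 5.08% of the members at either dose. The background was 3.24% of all genes called at 5 mg/kg (1.83% higher and 1.41% lower) and 5.16% at 20 mg/kg (2.65% higher and 2.52% lower), so the family's share was near that of all genes. At an unadjusted p under 0.05 there were 10 members at 5 mg/kg against 14.8% of all genes and 9 at 20 mg/kg against 16.9%. At 50 mg/kg limma called 0 of 59 members (5 at an unadjusted p under 0.05, background 10%) against 0.402% of all genes, 0.225% higher and 0.176% lower. At 200 and 500 mg/kg limma called 0 members (4 and 3 at an unadjusted p under 0.05, backgrounds 4.4% and 6.7%) and 0% of all genes. The F test over the 6 groups called Dnajb14 alone (adjusted p = 0.0126, limma) against 3.37% of all genes, with 5 members at an unadjusted p under 0.05 against 13.7%. It called none of them without vehicle array 1, and Dnajb14 and Hspa9 without array 2 of 200 mg/kg or array 4 of 500 mg/kg. No member passed for the slope over dose rank (0 members at an unadjusted p under 0.05, against 5.73% of all genes, and a background of 0% called). Nor did any for 20 against 200 mg/kg, which leaves the vehicle arrays out (3 at an unadjusted p under 0.05, against 9.62%, and a background of 0.529% called, 0.314% higher and 0.216% lower, limma).

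**Figure D1:**
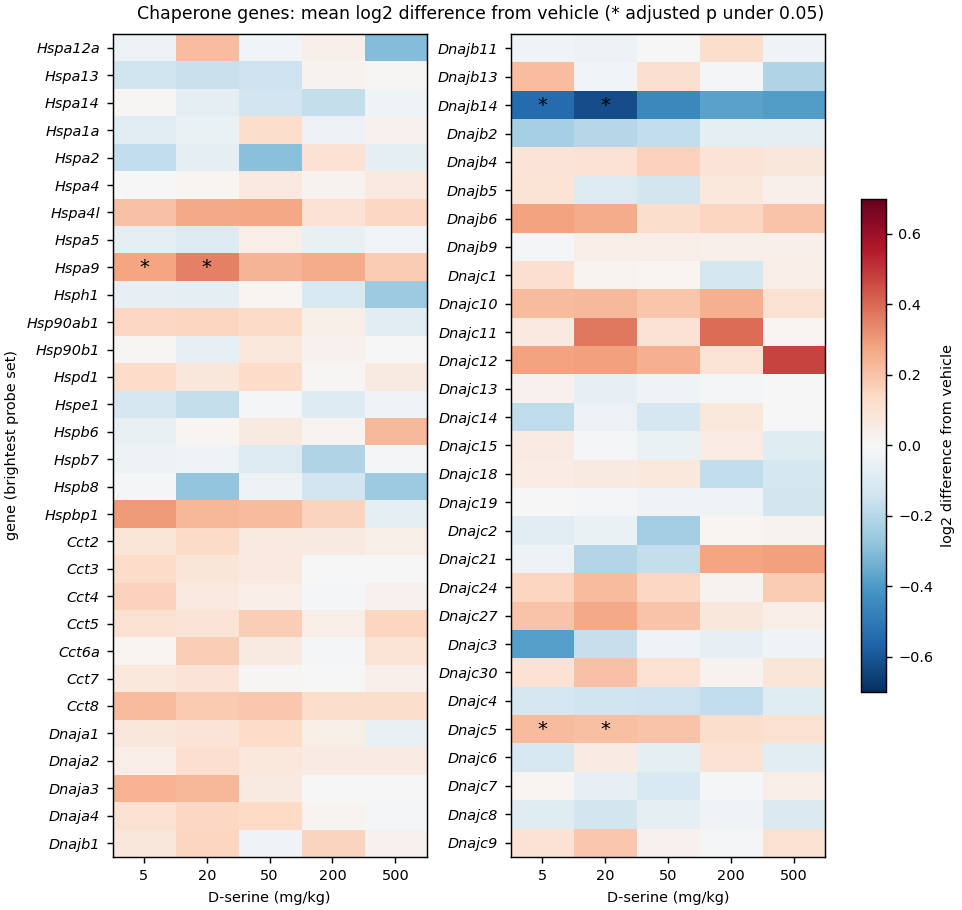
Mean log2 difference from vehicle of each of the 59 tested chaperone genes (rows, brightest probe set) at 5, 20, 50, 200 and 500 mg/kg D-serine (columns), n = 4 arrays per group, with asterisks where limma's adjusted p was under 0.05. Asterisks stand only at Dnajb14, Hspa9 and Dnajc5 at 5 and 20 mg/kg; the strong colour of Dnajc12 at 500 mg/kg includes array 4.

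Dnajb14 had the largest difference among the tested members, at their brightest probe sets, at 5, 20 and 50 mg/kg. Its brightest probe set (1384376_at) read 8.42, 8.36, 8.02 and 8.08 on the 4 vehicle arrays, in log2(intensity + 16), the scale of every level given here. It read 7.85, 7.57, 7.69 and 7.62 at 5 mg/kg, and the 20 mg/kg arrays read 7.84, 7.46, 7.54 and 7.55. All 8 arrays of these doses lay below all 4 vehicle arrays, and 2 vehicle arrays stood well above the other 2.

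The Dnajb14 readings were 7.93, 7.76, 7.86 and 7.51 at 50 mg/kg. They were 8.01, 7.96, 7.72 and 7.70 in the 200 mg/kg group and 7.77, 7.81, 7.82 and 7.90 in the 500 mg/kg group. These groups also lay wholly below vehicle, although the highest array at 200 mg/kg and the lowest vehicle array were nearly level. Dnajb14 was the only one of the 59 members whose groups did not overlap vehicle at all 5 doses. These comparisons share the same 4 vehicle arrays.

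The Dnajb14 signal fell by 0.54 ± 0.11 (log2, SE, n = 4) at 5 mg/kg (adjusted p = 0.00588, limma) and by 0.62 at 20 mg/kg (adjusted p = 0.00126), the latter to 0.65 of the vehicle level. The differences of -0.45, -0.37 and -0.39 at 50, 200 and 500 mg/kg did not pass (adjusted p = 0.0573, 0.755 and 0.532, limma), and without array 4 the last was -0.42. The calls at 5 and 20 mg/kg held when any 1 of the 24 arrays was left out, and the 50 mg/kg difference passed without vehicle array 3, array 1 of 20 mg/kg, array 1 of 50 mg/kg or array 4 of 500 mg/kg (-0.52 to -0.45, adjusted p = 0.0316 to 0.0475, limma). A limma fit with the Gapdh ratio as a covariate gave -0.19 and -0.29 (adjusted p = 0.942 and 0.938) and called 0 of the 10205 genes at either dose. With values as deposited the differences were -0.32 and -0.22 and did not pass (adjusted p = 0.294 and 0.309, limma). Its other probe sets, 1391398_at and 1393996_at, were too dim to test and gave 0.44 and -0.00 at 5 mg/kg and 0.16 and -0.26 at 20 mg/kg, so the fall rests on 1 probe set.

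Hspa9, which pulls imported proteins into the mitochondrial matrix, read 8.37, 8.73, 8.53 and 8.72 on the vehicle arrays. It read 8.82, 8.91, 8.82 and 8.90 at 5 mg/kg and 8.91, 8.98, 8.92 and 8.97 at 20 mg/kg. Neither dose group overlapped vehicle, and the vehicle arrays were the most scattered of the 3 groups. The rise was 0.28 ± 0.08 at 5 mg/kg (log2, SE, n = 4, adjusted p = 0.0432, limma) and 0.35 at 20 mg/kg (adjusted p = 0.00663). At 50, 200 and 500 mg/kg the differences were 0.24, 0.26 and 0.18 and did not pass. Hspa9 carried the heat shock element of 2 units in its promoter window.

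The call of Hspa9 at 20 mg/kg held without any 1 array, while that at 5 mg/kg held without 10 of the 24. It was lost without vehicle array 1 or 3, any array of 5 or 20 mg/kg, array 2 of 50 mg/kg, array 1 of 200 mg/kg, or array 1 or 2 of 500 mg/kg, at adjusted p from 0.0503 to 0.167 with differences from 0.20 to 0.29. The call at 5 mg/kg was also lost with no filter, with values as deposited, without the intensity trend, with 1 probe set per gene and with only the 8 arrays compared (0.28 to 0.51, adjusted p = 0.0537 to 0.131, limma). In the fit with the Gapdh ratio the differences were 0.20 and 0.28 and did not pass (adjusted p = 0.926 and 0.927, limma). Its other tested probe set, 1370690_at, gave -0.18 and -0.12 (SE 0.25, adjusted p = 0.776 and 0.84), which does not differ from the brightest one beyond the error of their difference (adjusted p = 0.241 and 0.197, limma on the difference within each array).

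Dnajc5 read 10.02, 10.09, 10.14 and 10.01 on the vehicle arrays. It read 10.37, 10.34, 10.19 and 10.24 at 5 mg/kg and 10.21, 10.32, 10.32 and 10.24 at 20 mg/kg. Neither group overlapped vehicle, and the differences were small and the arrays tight. The brightest probe set rose by 0.22 ± 0.06 at 5 mg/kg (log2, SE, n = 4, adjusted p = 0.0319, limma) and by 0.21 at 20 mg/kg (adjusted p = 0.0286). At 50, 200 and 500 mg/kg it differed by 0.20, 0.12 and 0.10, which did not pass.

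A second Dnajc5 probe set, 1384001_at, read 8.38, 8.48, 8.56 and 8.44 in vehicle, 9.27, 9.23, 9.004 and 9.05 at 5 mg/kg and 9.09, 9.27, 9.24 and 9.01 at 20 mg/kg. It rose by 0.67 ± 0.10 and 0.69 (adjusted p = 0.000303 and 0.00013, limma), and again no array of either dose overlapped vehicle. A dimmer one, 1369813_at, gave 0.16 at 5 mg/kg (adjusted p = 0.468, limma) and rose by 0.44 at 20 mg/kg (adjusted p = 0.0137), a call lost with only the 8 arrays compared and without vehicle array 2 or array 2 of 20 mg/kg (0.36 to 0.44, adjusted p = 0.0565 to 0.0633, limma). Dnajc5 was thus the 1 member called at its brightest probe set that also passed at another of its probe sets.

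The calls of the brightest Dnajc5 probe set were lost at 5 mg/kg without vehicle array 1, 2 or 4 or without array 1 or 2 of that dose (differences 0.19 to 0.23, adjusted p = 0.0511 to 0.0965, limma), and at 20 mg/kg without vehicle array 1 or 4 or array 2 or 3 of that dose (0.19 to 0.20, adjusted p = 0.082 to 0.0935). Both calls were also lost without the intensity trend (adjusted p = 0.0587 and 0.0563, limma) and with only the 8 arrays compared (adjusted p = 0.11 and 0.0929), and that at 5 mg/kg with values as deposited (0.47, adjusted p = 0.056). Fitted with the Gapdh ratio they were 0.14 and 0.13 (adjusted p = 0.932 and 0.938, limma).

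**Figure D2:**
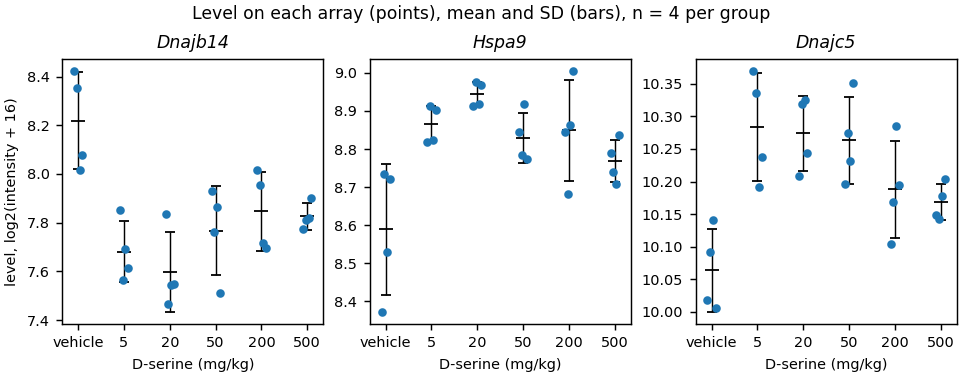
Level of Dnajb14, Hspa9 and Dnajc5 on each array (points, log2(intensity + 16), brightest probe set) with mean and SD (bars, n = 4) for vehicle and each dose. Dnajb14 lies below vehicle in every dose group, and Hspa9 and Dnajc5 lie above vehicle without overlap at 5, 20 and 50 mg/kg.

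The heat-inducible genes are those that heat shock factor 1 raises most, and 9 of the 12 listed were tested. None was called at its brightest probe set at any dose by limma (1 at an unadjusted p under 0.05 at 5 mg/kg, Hspd1, and 1 at 20 mg/kg, Hspe1). Their median log2 differences were 0.08, 0.09, 0.13, 0.02 and 0.03 from 5 to 500 mg/kg, where the medians over all genes lay between -0.01 and 0.00. Dnajb1 and Dnaja4 passed at another probe set at 5 and 20 mg/kg, as given below. Hspa1a, the classic stress-induced Hsp70, read 6.85, 7.30, 7.25 and 7.05 in vehicle, 7.06, 7.12, 7.08 and 7.03 at 20 mg/kg and 7.17, 7.17, 7.05 and 7.21 at 500 mg/kg. The groups overlapped throughout, and the differences were -0.04 (95% interval -0.26 to 0.17) at 20 mg/kg and 0.03 (-0.18 to 0.25) at 500 mg/kg.

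Hsp90ab1, the constitutive cytosolic Hsp90, gave 0.14, 0.15, 0.13, 0.04 and -0.08 over the 5 doses, and Dnaja1, a J protein partner of cytosolic Hsp70, gave 0.08, 0.09, 0.13, 0.04 and -0.05. Neither passed at its brightest probe set at any dose, and a second probe set of Hsp90ab1 is given below. Hsph1, the exchange factor for Hsp70, gave -0.06, -0.06, 0.01, -0.11 and -0.25, and the last value was -0.05 without array 4 of 500 mg/kg, which read 9.92 against 10.69 to 10.77 on the other 3. Hspa4, a further exchange factor, differed by between -0.00 and 0.07.

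In the endoplasmic reticulum class 10 of 13 listed genes were tested, and Dnajb14 was the 1 called at its brightest probe set. Dnajc10 of this class rose at another probe set, 1389290_at, by 0.54 and 0.60 at 5 and 20 mg/kg (adjusted p = 0.0212 and 0.00805, limma). The call at 5 mg/kg was lost without vehicle array 1 or array 2 of that dose (adjusted p = 0.089 and 0.0793, limma). Fitted with the Gapdh ratio these differences were -0.04 and 0.03, and 0.12 and 0.18 when array 4 of 500 mg/kg was also left out. Hspa5, the lumenal Hsp70 known as BiP and the usual readout of folding stress there, read 10.35, 10.85, 10.53 and 10.94 in vehicle, 10.79, 10.37, 10.58 and 10.55 at 20 mg/kg and 10.55, 10.69, 10.67 and 10.69 at 500 mg/kg. The treated arrays lay inside the vehicle range, and the differences were -0.10 (95% interval -0.33 to 0.14) and -0.02 (-0.26 to 0.22). Hsp90b1, the lumenal Hsp90, differed by between -0.06 and 0.08, and Dnajb9, which holds the stress sensor IRE1 inactive, by between -0.01 and 0.05. These are genes whose promoters hold the stress element shown above or that the same response is known to raise.

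Dnajc3, an inhibitor of the kinases that phosphorylate eIF2 alpha, read 6.83, 6.41, 6.60 and 6.78 in vehicle and 6.16, 6.50, 6.09 and 6.33 at 5 mg/kg. The groups overlapped through 1 array of each. The difference of -0.38 ± 0.13 (SE) did not pass (adjusted p = 0.084, limma), and at the higher doses it was -0.16, -0.03, -0.06 and -0.03.

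**Figure D3:**
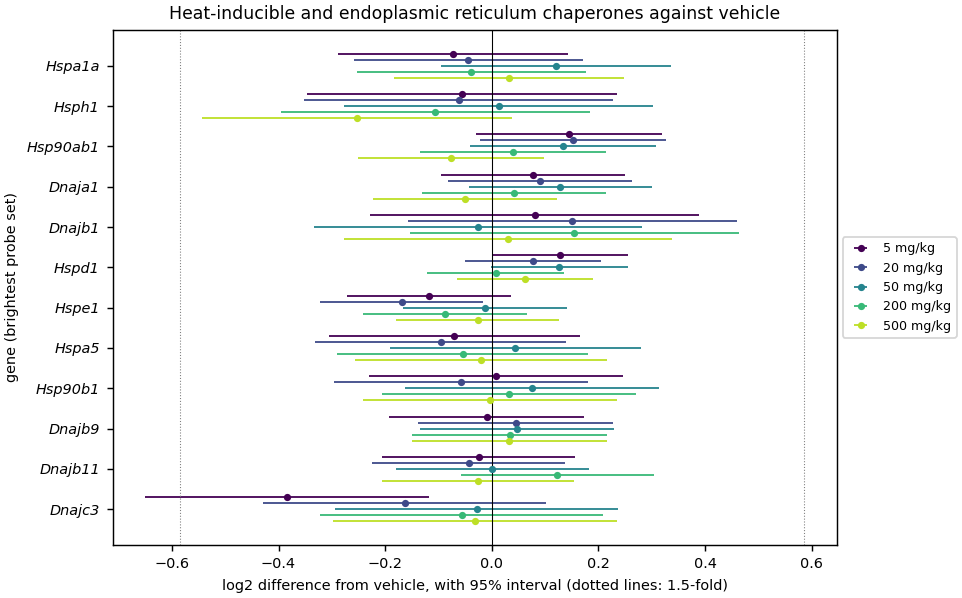
Log2 difference from vehicle with its 95% interval (limma, n = 4 arrays per group) at each dose, with dotted lines at a 1.5-fold difference either way. Shown are the heat-inducible Hspa1a, Hsph1, Dnaja1, Dnajb1, Hspd1 and Hspe1, the constitutive Hsp90ab1, and 5 chaperones of the endoplasmic reticulum. The intervals of Hspa5, Hsp90b1, Dnajb9, Dnajb11 and Hspa1a stay inside the dotted lines at all 5 doses, and that of Dnajc3 at 5 mg/kg reaches past them.

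These intervals cover the brightest probe sets only and take no account of the RNA quality ratios. Another probe set of Dnajb1 differed by more than 1.5-fold at 5 and 20 mg/kg, as given below. The 95% interval lay within 1.5-fold of no difference for 53, 54, 52, 55 and 52 of the 59 members from 5 to 500 mg/kg, against 78.4%, 76.8%, 81.3%, 83.9% and 80.3% of all genes. Within-group SDs of the members had a median of 0.14 and those of all genes 0.19, in log2. The most scattered members were Dnajb13, which acts in motile cilia, and Dnajc11 of the mitochondrial inner membrane organising system, with within-group SDs of 0.64 and 0.51 at mean levels of 5.99, just above the filter at 5.98.

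Among the other mitochondrial members, Hspd1 and Hspe1 form the chaperonin that folds imported proteins. Hspd1 read 10.27, 10.59, 10.46 and 10.37 in vehicle and 10.59, 10.43, 10.50 and 10.49 at 20 mg/kg. Hspe1 read 10.36, 10.57, 10.51 and 10.45 in vehicle and 10.32, 10.27, 10.21 and 10.42 at 20 mg/kg. Both genes' groups overlapped. The differences at 20 mg/kg were 0.08 for Hspd1 (adjusted p = 0.519, limma) and -0.17 for Hspe1 (adjusted p = 0.176), with opposite signs. Of the 9 tested mitochondrial genes Hspa9 was the 1 called.

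All 7 tested CCT subunits, Cct2, Cct3, Cct4, Cct5, Cct6a, Cct7 and Cct8, had positive differences at 5, 20, 50 and 500 mg/kg, and 5 of 7 did at 200 mg/kg. Over all genes 48.7%, 48.7%, 48.3%, 49.4% and, at 200 mg/kg, 51.4% were positive. The differences were small, with medians of 0.11, 0.09, 0.06, 0.01 and 0.04 from 5 to 500 mg/kg. No subunit passed at its brightest probe set at any dose by limma (1 at an unadjusted p under 0.05 at 5 mg/kg, Cct8, and 1 at 50 mg/kg, Cct5). At another probe set Cct6a passed at 5 and 20 mg/kg, as given below. Cct5 (1395508_at, 0.53) and Cct8 (1373784_at, 0.26) passed so at 20 mg/kg (adjusted p = 0.0229 and 0.0465, limma). Both calls were lost without vehicle array 1 (adjusted p = 0.0973 and 0.107, limma), among other fits. That of Cct8 was also lost with no filter, without the intensity trend and with only the 8 arrays compared (adjusted p = 0.0564, 0.0535 and 0.125, limma). It was lost as well in fits that left out 1 array of any of the 5 doses, such as array 2. At the brightest probe sets the largest difference was that of Cct8, which read 8.43, 8.80, 8.74 and 8.80 in vehicle and 8.90, 8.92, 8.89 and 8.95 at 5 mg/kg, a difference of 0.22 ± 0.09 (SE, adjusted p = 0.185, limma). These groups did not overlap, and the lowest vehicle array, array 1, was also lowest for Dnaja1, Dnajb9 and Hsp90b1.

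The sign shared by the CCT subunits did not hold in every fit. In the fit with the Gapdh ratio 2 of 7 were positive at 5 mg/kg and 1 of 7 at 20 mg/kg, with medians of -0.06 and -0.04. With arrays median centred in place of quantile normalized all 7 were positive and the medians were 0.23 at both doses, where that scaling moved the median of all genes to 0.06 and 0.07. The lowest median when 1 array was left out was 0.06 at 5 mg/kg and 0.04 at 20 mg/kg, in both cases without vehicle array 1.

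Of the small heat shock proteins, holding chaperones found largely in muscle and glia, Hspb6, Hspb7 and Hspb8 were tested and none passed by limma (0 at an unadjusted p under 0.05 at any dose). Hspb8, a partner of Bag3 in selective autophagy, read 7.38, 7.44, 7.21 and 7.25 in vehicle and 6.93, 7.08, 6.96 and 7.20 at 20 mg/kg. The groups did not overlap, by a narrow gap, and the difference of -0.28 ± 0.14 (SE) did not pass (adjusted p = 0.25, limma). Hspb6 differed by between -0.05 and 0.06 up to 200 mg/kg and by 0.23 at 500 mg/kg, and the last value was -0.00 without array 4, which read 8.73 against 7.70 to 7.86.

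The J proteins were the larger share of the family, with 13 tested genes of classes A and B and 21 of class C. Apart from Dnajb14 and Dnajc5, none was called at its brightest probe set. At another probe set Dnajc10, as given above, and Dnajb1, as given below, passed at 5 and 20 mg/kg. Dnaja4 rose at 1395572_at (mean level 6.10, near the filter) by 0.90 and 0.94 (adjusted p = 0.0105 and 0.00526, limma). Dnajc14 rose at 1369714_at by 0.41 at 20 mg/kg (adjusted p = 0.0155, limma), a call lost without vehicle array 1. With the Gapdh ratio as a covariate no such probe set passed by limma. Dnajb6, which suppresses aggregation of polyglutamine proteins, read 9.60, 9.48, 9.68 and 9.68 in vehicle and 9.97, 9.97, 9.92 and 9.69 at 5 mg/kg. The difference was 0.28 ± 0.10 (SE) at 5 mg/kg and 0.26 at 20 mg/kg, with no overlap at either, and neither passed (adjusted p = 0.112 and 0.124, limma). At 500 mg/kg Dnajb6 again did not overlap vehicle, at 0.20 with array 4 and 0.17 without it. Dnaja2, a cytosolic partner of Hsp70, differed by between 0.04 and 0.12, and Dnajc6, the neuronal auxilin, by between -0.11 and 0.10.

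Counting members whose 4 arrays lay wholly apart from the 4 vehicle arrays, 6 were above at 5 mg/kg against 5.64% of all genes, and 1 was below against 5.23%. At 20 mg/kg 6 were above (background 5.97%) and 2 below (6.24%), and at 50 mg/kg 2 above (3.13%) and 2 below (3.13%). At 200 mg/kg 0 were above (1.54%) and 1 below (1.66%), and at 500 mg/kg 2 above (1.22%) and 1 below (1.41%). Hspa9, Dnajc5, Dnajb6, Dnajc27 and Hspbp1 were above at both 5 and 20 mg/kg, and Dnajc27 and Hspbp1 were picked after the values were seen. Dnajc27 is a J protein fused to a Rab-like GTPase and Hspbp1 an exchange factor for Hsp70. As shares of the 59 members the counts above were 10.2% at both lower doses.

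**Figure D4:**
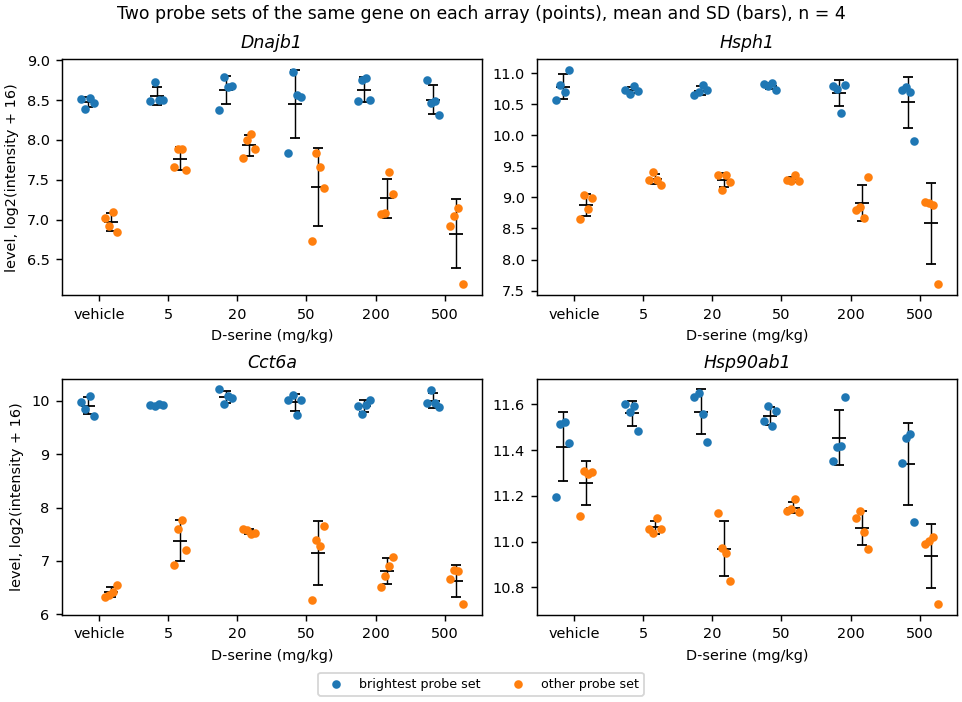
Level on each array (points, log2(intensity + 16)) with mean and SD (bars, n = 4) of the brightest probe set (blue) and another probe set (orange) of Dnajb1, Hsph1, Cct6a and Hsp90ab1, for vehicle and each dose. The orange points rise at 5 and 20 mg/kg for Dnajb1 and Cct6a while the blue means differ from vehicle by at most 0.17, and for Hsp90ab1 the orange points fall at 20 mg/kg.

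Several member genes gave another picture at a probe set other than the brightest, and this was examined after the values were seen. Of 18 such probe sets tested, 5 passed at 5 mg/kg, all higher, against 13.1% of such probe sets of all genes, where 390 of 454 calls were higher. At 20 mg/kg 10 passed, 9 higher and 1 lower, against 19.2%, where 540 of 663 calls were higher. The direction was thus not particular to the members. At 50 mg/kg 1 passed, a Dnajc5 probe set, against 2.83%. The counts at 5 and 20 mg/kg include Dnaja4, whose probe set was kept through its levels at the 3 lower doses, as given above. By limma 0 passed at 200 or 500 mg/kg (3 at an unadjusted p under 0.05 at each, backgrounds called 0% and 0.0289%). The medians of the 18 were 0.27 and 0.36 at 5 and 20 mg/kg, and 0.07 and 0.09 over all such probe sets. The count of 5 at 5 mg/kg was 3 without array 2 or array 3 of that dose and 8 without array 4 of 500 mg/kg, and the count of 1 at 50 mg/kg was 0 without array 4 of that dose, 2 without array 4 of 500 mg/kg and 3 without array 1 of 50 mg/kg.

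Dnajb1, the J protein that pairs with inducible Hsp70, gave such a split. Its brightest probe set read 8.52, 8.39, 8.52 and 8.47 in vehicle and 8.37, 8.79, 8.66 and 8.68 at 20 mg/kg. The other, 1383302_at, read 7.02, 6.92, 7.09 and 6.84 in vehicle, 7.66, 7.89, 7.89 and 7.62 at 5 mg/kg and 7.77, 7.99, 8.07 and 7.88 at 20 mg/kg. The first overlapped vehicle and the second did not, at either dose.

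In fold terms the brightest Dnajb1 probe set differed by 0.08 and 0.15, whereas 1383302_at rose by 0.80 and 0.96 (log2, adjusted p = 0.0193 and 0.00363, limma), the former call being lost without vehicle array 4 or array 2 or 3 of 5 mg/kg (0.75, adjusted p = 0.0553 to 0.0623). Their difference on the same array, a measure within each rat, shifted by 0.72 ± 0.14 (SE) at 5 mg/kg (adjusted p = 0.000977, limma), 0.81 at 20 mg/kg (adjusted p = 0.000216) and 0.46 at 50 mg/kg (adjusted p = 0.0399). At 200 and 500 mg/kg it differed by 0.14 and -0.18 (adjusted p = 0.766 and 0.792, limma). The 5 and 20 mg/kg shifts passed without any 1 array. Fitted with the Gapdh ratio they were 0.12 and 0.23 and did not pass (adjusted p = 0.927 and 0.809, limma). When array 4 of 500 mg/kg was also left out they were 0.26 and 0.37 and did not pass (adjusted p = 0.814 and 0.66, limma).

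For Hsph1 the brightest probe set gave -0.06 at both doses. Its second probe set, 1385620_at, read 8.66, 9.03, 8.82 and 8.99 in vehicle, 9.28, 9.40, 9.29 and 9.20 at 5 mg/kg and 9.36, 9.13, 9.37 and 9.25 at 20 mg/kg, without overlap. Its own differences of 0.42 and 0.40 did not pass (adjusted p = 0.264 and 0.256, limma), but its shift against the brightest probe set did, at 0.47 ± 0.11 (SE, adjusted p = 0.00363) and 0.46 (adjusted p = 0.00332). Fitted with the Gapdh ratio the shift was -0.00 at both doses.

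Cct6a, a subunit of the CCT ring, gave a shift of the same sign. Its probe set 1377006_at read 6.33, 6.36, 6.42 and 6.55 in vehicle, 6.92, 7.60, 7.77 and 7.21 at 5 mg/kg and 7.61, 7.58, 7.51 and 7.52 at 20 mg/kg, wholly above vehicle. It rose by 0.96 and 1.14 (adjusted p = 0.0118 and 0.00216, limma), the former not passing without array 3 of 5 mg/kg (0.83, adjusted p = 0.0556), whereas the brightest Cct6a probe set differed by 0.01 and 0.17. The shift between them was 0.94 ± 0.22 (SE) and 0.97 (adjusted p = 0.00293 and 0.00159, limma), and -0.10 and -0.05 fitted with the Gapdh ratio.

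Hsp90ab1 went the other way. Its probe set 1375335_at read 11.11, 11.31, 11.30 and 11.31 in vehicle and 11.13, 10.97, 10.95 and 10.83 at 20 mg/kg, with 1 array of each group overlapping. It fell by 0.29 at 20 mg/kg (adjusted p = 0.013, limma), where the brightest one stood at 0.15. It did not pass with median centring (-0.14, adjusted p = 0.402, limma) or with only the 8 arrays compared (-0.29, adjusted p = 0.0561), and with values as deposited the sign turned (0.17, adjusted p = 0.339). In the fit with the Gapdh ratio it was -0.35 (adjusted p = 0.901, limma). The shift was -0.34 ± 0.08 (SE) at 5 mg/kg (adjusted p = 0.00235, limma) and -0.44 at 20 mg/kg (adjusted p = 0.000153), and fitted with the Gapdh ratio it was -0.10 and -0.20. The shifts of Hsph1, Cct6a and Hsp90ab1 at 5 and 20 mg/kg also passed without any 1 array.

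Over the 18 pairs of member probe sets, the shift passed for 7 at 5 mg/kg (background 20.4% of 3459 such pairs), 9 at 20 mg/kg (25.2%) and 5 at 50 mg/kg (9.66%). None passed at the higher doses, with 0 pairs at 200 mg/kg (0.116%) and 0 at 500 mg/kg (0.0867%), by limma on the difference within each array (1 and 2 at an unadjusted p under 0.05). The passing shifts were positive for 6 of 7, 8 of 9 and 4 of 5 pairs, Hsp90ab1 being the negative one each time. Over the pairs of all genes 597 of 705, 721 of 873 and 290 of 334 passing shifts were positive at these doses. The direction was thus not particular to the members. Besides the genes above, Dnaja4 shifted by 0.79 and 0.80, Dnajc14 by 0.46 and 0.45, and the brighter of the second Dnajc5 probe sets by 0.45 and 0.48. The Dnaja4 probe set lay under the filter level in vehicle and was kept through its levels at 5, 20 and 50 mg/kg, so the filter favoured its shifts. At 20 mg/kg alone Cct5 (0.44) and Dnaja1 (0.22) passed as well, although passing at 1 dose and not another is no test that the doses differ. Fitted with the Gapdh ratio by limma, 0 pairs passed at 5, 20 or 50 mg/kg. In that fit the Dnajc14 shifts were 0.49 and 0.48 with wider errors (SE 0.27 and 0.26, adjusted p = 0.777 and 0.711, limma), and those of the second Dnajc5 probe set 0.18 and 0.21. The doses with shifts that passed are those at which the Gapdh and actin ratios lay apart from vehicle. For Hsp90ab1 the shift was -0.23 at 200 mg/kg and -0.24 at 500 mg/kg, as at 50 mg/kg (-0.24). At the 2 higher doses it did not pass (unadjusted p = 0.00461 and 0.00342, adjusted p = 0.359 and 0.44, limma). The count at 50 mg/kg fell to between 1 and 3 without any 1 array of vehicle. It did so too without array 3 of 20 mg/kg or array 2, 3 or 4 of 50 mg/kg. RNA quality and dose cannot be told apart in the shifts at 5, 20 and 50 mg/kg.

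**Figure D5:**
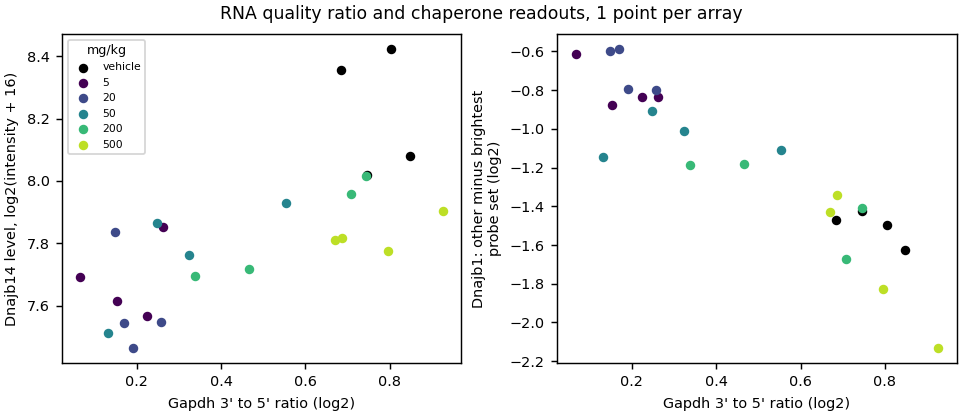
Gapdh 3′ to 5′ ratio (log2, horizontal axis) against the Dnajb14 level (left, log2(intensity + 16)) and against the difference between the other and the brightest Dnajb1 probe set (right, log2), 1 point per array, coloured by group. The arrays of 5, 20 and 50 mg/kg have lower ratios than all 4 vehicle arrays, so RNA quality and dose cannot be told apart there.

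Array 4 of 500 mg/kg, which stood apart in its tissue markers, differed from the other 3 arrays of its group by over 1 log2 unit for 3 members (5.08%) and for 9.64% of all genes. The 3 were Dnajb13 at -1.79, Dnajc11 at -1.51 and Dnajc12, a J protein linked to aromatic amino acid hydroxylases, at 1.48, named after the values were seen. Dnajc12 read 7.71, 7.90, 7.74 and 9.27 at 500 mg/kg and 7.68, 7.98, 7.73 and 7.33 in vehicle. Apart from array 4, the 500 mg/kg arrays lay inside the vehicle range. None of the members passed at 500 mg/kg with or without that array.

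The wider chaperone network outside the naming rule was read from a list of 71 co-chaperones, regulators and folding enzymes, of which 65 were tested. At 5 mg/kg 1 rose and 1 fell, at 20 mg/kg 2 rose, and by limma 0 passed at 50, 200 or 500 mg/kg (5, 3 and 5 at an unadjusted p under 0.05), with median differences between -0.01 and 0.04 over the 5 doses. The background of all genes called was 3.24%, 5.16%, 0.402%, 0% and 0% from 5 to 500 mg/kg, so these counts were near or below it. Stub1, the ubiquitin ligase that works with Hsp70 and Hsp90, read 9.08, 9.19, 9.22 and 9.03 in vehicle and 9.54, 9.57, 9.53 and 9.46 at 5 mg/kg, without overlap. It rose by 0.39 ± 0.11 (SE, adjusted p = 0.0311, limma), a call lost without vehicle array 1 or 4 or without array 1, 2 or 3 of 5 mg/kg (0.36 to 0.39, adjusted p = 0.064 to 0.0877).

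Hspb1, the small heat shock protein left out of the family here, read 6.72, 6.88, 6.52 and 6.68 in vehicle and 6.22, 5.95, 5.83 and 5.77 at 5 mg/kg, without overlap. It fell by 0.76 ± 0.22 (SE, adjusted p = 0.0473, limma), and the call was lost in 15 of the 24 fits that each left out 1 array (-0.82 to -0.70, adjusted p = 0.0502 to 0.119). These left out any array of vehicle, array 2, 3 or 4 of 5 mg/kg, array 1, 2 or 4 of 20 mg/kg, array 2, 3 or 4 of 50 mg/kg, or array 1 or 2 of 500 mg/kg. Cdc37, which brings kinases to Hsp90, and its relative Cdc37l1 rose at 20 mg/kg by 0.25 ± 0.07 and 0.56 ± 0.13 (adjusted p = 0.0244 and 0.0104, limma). Cdc37 was lost without vehicle array 1 or 4 or array 2 or 3 of 20 mg/kg (0.20 to 0.24, adjusted p = 0.0615 to 0.105, limma). With the Gapdh ratio as a covariate none of the 4 passed by limma. The differences were then 0.35 for Stub1 (adjusted p = 0.926) and -0.48 for Hspb1 (adjusted p = 0.934) at 5 mg/kg, and 0.14 for Cdc37 (adjusted p = 0.94) and 0.55 for Cdc37l1 (adjusted p = 0.922) at 20 mg/kg, by limma. When array 4 of 500 mg/kg was also left out, they were 0.16 for Stub1, -0.82 for Hspb1, 0.10 for Cdc37 and 0.48 for Cdc37l1, and again none passed by limma.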

How the data were processed

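RNA from 24 forebrain pieces, 1 per rat, was hybridised to 1-colour Affymetrix arrays, 4 arrays in each of 6 groups. The deposited values are intensities per probe set on a linear scale, made by the authors with GCOS, as the submitters' processing notes name it; neither version nor scaling target is given in the sources used here. Replicates were separate rats, numbered here only to name them. The intensities were quantile normalized and taken as log2(intensity + 16), and 57 control probe sets and the dimmest 40% by mean (below 5.98) were left out, which kept 18625 probe sets. limma 3.58.1 in R 4.3.3 was fitted to 6 group means with an intensity trend, with Benjamini-Hochberg adjustment over all kept probe sets and a threshold of 0.05; single values had exact permutation tests. The steps were tested on simulated data. Probe sets were named through the platform annotation: 20832 have 1 symbol, 436 several and 9831 none. Genes were named in the text if they passed in a comparison with vehicle or stood on a list of main chaperones. The members and lists were chosen with earlier results of these data known. The number of arrays limits the precision: the median SE of a difference was 0.14. Alternatives were other scalings, filters, pseudocounts and moderation, array weights, the Gapdh ratio as a covariate and leaving out each array; 2 probe set comparisons were chosen after seeing the data. Promoters came from RefSeq.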

Additional observations from a re-analysis of the deposited data

Results flagged for a closer look

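Of 162 groups of 4 arrays (27 named genes in 6 groups), 16, or 9.88%, held an array whose gap to its nearest neighbour divided by the group's range passed Dixon's critical value for 4 samples, which chance alone passes in about 1 group in 20. Array 4 of 500 mg/kg held 6 of them: it was highest for Cct4 at 9.99, Cct5 at 10.21, Dnajb6 at 9.88 and Hspb6 at 8.73, and lowest for Dnajc6 at 10.63 and Hsph1 at 9.92. Vehicle array 1 held 3, lowest for Dnaja1 at 10.11, Dnajb9 at 8.45 and Hsp90b1 at 10.03. Hsph1 was lowest on array 3 of 200 mg/kg at 10.36. Hspa5 was highest on array 2 of 50 mg/kg at 10.86 and lowest on array 1 of 500 mg/kg at 10.55. Among the rest, Cct5 was lowest on array 4 of 20 mg/kg at 9.89 and Cct8 lowest on array 1 of 50 mg/kg at 8.62. At 5 mg/kg Dnaja2 was lowest on array 4 at 10.14 and Dnajb1 highest on array 2 at 8.73.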

How the results depend on the processing

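No paired analysis was possible because the labels give no replicate numbers shared between groups, each array being a different rat. In all, 5604 recomputed results kept their side of the threshold, 36 passed that had not and 85 no longer passed. The sign of a difference that did not pass could turn, as for Hsp90ab1 with values as deposited and most CCT subunits with the Gapdh ratio. Counts of chaperone genes called were as follows. At 5 mg/kg (3) it was 1 with values as deposited, without the intensity trend, or with only the 8 arrays compared, and 1 to 4 leaving out 1 array, with 1 without vehicle array 1 or array 1 or 2 of 5 mg/kg. At 20 mg/kg (3) it was 34, all higher, with values as deposited. At 50 mg/kg (0) it was 1 with a filter of 60%, 2 with array weights and 0 to 1 leaving out 1 array. For the F test (1) it was 2 with median centring, 29 as deposited, 4 with array weights and 0 to 2 leaving out 1 array. For 20 against 200 mg/kg (0) it was 40 as deposited and 3 with array weights. The deposited scale moved the median of all genes by 0.20 at 5 mg/kg, 0.38 at 20 mg/kg and 0.41 for 20 against 200 mg/kg, and called 3905 genes higher and 4 lower at 20 mg/kg, against 270 and 257 after quantile normalization; with median centring these were 477 and 95, and at 5 mg/kg 308 and 47 against 187 and 144. Related genes called at 5 mg/kg (2) were 1 with no filter or a pseudocount of 64, 4 with array weights, 0 with 1 probe set per gene and 0 to 4 leaving out 1 array; at 20 mg/kg (2) 40 as deposited, 5 with array weights and 1 to 4 leaving out 1 array; at 50 mg/kg (0) 2 with array weights and 0 to 2 leaving out 1 array. Other probe sets called at 5 mg/kg (5) were 8 with array weights and 3 to 8 leaving out 1 array, at 20 mg/kg (10) 15, all higher, as deposited and 7 to 12 in the other fits without the Gapdh ratio, and at 50 mg/kg (1) 0 as deposited, 5 with array weights and 0 to 3 leaving out 1 array. Differences within a gene were 6 to 8 at 5 mg/kg (7), 7 to 9 at 20 mg/kg (9), and at 50 mg/kg (5) 3 without the intensity trend and 1 to 5 leaving out 1 array. With the Gapdh ratio as a covariate, with all arrays or without array 4 of 500 mg/kg, each count in parentheses that was not 0 became 0 by limma, in fits that called 0 of all 10205 genes. The cause of these changes was not tested.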
